A study of Mus musculus with 18 samples.

Results

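Genes of the synaptic vesicle and of transmitter release were followed over all arrays, namely Snap25, Vamp2, Stx1a, Syt1, Syn1, Syn2, Syp, Slc17a7, Sv2a and Sv2b. A member was a probe set whose only gene symbol in the platform annotation was one of these names. Each of the 10 genes had 1 such probe set, so the members were 10 of 18781 genes with a symbol of their own and 10 of 35382 probe sets. All 10 were tested in every comparison, with no filter on low values.

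Transcript levels had been measured on 18 Affymetrix arrays from mice that carry TN-XXL, a genetically encoded fluorescent calcium indicator built around a calcium-binding domain of troponin C, and from wild type littermates. The 6 groups of 3 arrays were transgenic and wild type hippocampus, transgenic and wild type heart muscle, and transgenic and wild type skeletal muscle, all of the C57BL/6 strain. Arrays of transgenic mice carry +/+ in their titles. For age, sex, founder line and the promoter driving the indicator, the answer is "not given in the sources used here", and expression of the indicator was not analysed here. Each p-value reflects the spread between arrays within groups, pooled over all 6 groups unless a smaller fit is named. Part of that spread may be technical, since the titles number the arrays but name no animals.

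A nerve terminal stores transmitter in vesicles and releases it when calcium enters. The SNARE proteins VAMP2 on the vesicle and syntaxin 1A and SNAP-25 on the plasma membrane zip together and draw the membranes into fusion, and synaptotagmin 1 is the calcium sensor that triggers this step. Synapsins hold vesicles in a reserve pool, synaptophysin is an abundant vesicle membrane protein that binds VAMP2, VGLUT1 (the product of Slc17a7) loads glutamate into vesicles, and the SV2 proteins are vesicle glycoproteins through which botulinum neurotoxin A enters. The hippocampus is dense in glutamatergic synapses, whereas the cell bodies of the motor neurons that serve skeletal muscle lie in the spinal cord and brainstem and those of the heart partly in its own ganglia.

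The 250 bases before the annotated start are printed for Sv2b and Syn2, whose levels were called different between genotypes in muscle or heart, and for Syn1, a textbook neuronal promoter, beside its paralog Syn2. The sequences are from RefSeq (GRCm38.p6), whose table gave 13 promoters for 8 of the 10 members. Capitals mark letters that matched a searched motif on either strand. Syn1 lies at chrX:20920919-20921168 (minus strand), Syn2 promoter 1 at chr6:115134652-115134901 (plus strand), and Sv2b promoters 1 and 3 at chr7:75309263-75309512 and chr7:75302610-75302859 (both minus strand).
Syn1: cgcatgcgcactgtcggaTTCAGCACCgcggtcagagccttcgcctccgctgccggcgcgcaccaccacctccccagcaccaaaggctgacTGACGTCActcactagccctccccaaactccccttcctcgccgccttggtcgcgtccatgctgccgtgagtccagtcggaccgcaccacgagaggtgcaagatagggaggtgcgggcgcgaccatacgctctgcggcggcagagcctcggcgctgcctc
Syn2 promoter 1: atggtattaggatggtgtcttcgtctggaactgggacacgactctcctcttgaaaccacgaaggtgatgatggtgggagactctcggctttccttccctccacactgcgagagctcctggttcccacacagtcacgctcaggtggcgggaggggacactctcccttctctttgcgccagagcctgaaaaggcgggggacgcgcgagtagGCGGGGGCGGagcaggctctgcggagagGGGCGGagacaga
Sv2b promoter 1: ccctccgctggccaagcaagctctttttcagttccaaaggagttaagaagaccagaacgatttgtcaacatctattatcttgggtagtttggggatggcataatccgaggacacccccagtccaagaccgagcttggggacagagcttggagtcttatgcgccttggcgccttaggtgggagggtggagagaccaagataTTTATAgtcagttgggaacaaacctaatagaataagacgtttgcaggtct
Sv2b promoter 3: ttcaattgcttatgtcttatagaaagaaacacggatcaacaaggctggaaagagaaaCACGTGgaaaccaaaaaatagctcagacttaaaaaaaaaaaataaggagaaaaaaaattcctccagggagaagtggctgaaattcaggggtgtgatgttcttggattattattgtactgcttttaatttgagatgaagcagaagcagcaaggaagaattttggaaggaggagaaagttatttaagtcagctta
In Syn1 the capitals are TTCAGCACC, the left part of the element bound by REST, a repressor of neuronal genes outside neurons, and TGACGTCA, the cyclic AMP response element. Among all 32851 promoters of this length, 0.301% held the left part and 1.55% the response element, and each was in 1 of the 13 member promoters. Syn2 promoter 1 held GCGGGGGCG, a motif of EGR proteins (2.57% of all promoters), which overlaps a GC box, GGGCGG, and it held another GC box nearer the start. GC boxes were in 6 of the 13 member promoters and in 32.7% of all. Sv2b promoter 1 held TATAAA on the opposite strand, as did its promoter 2 (12.4% of all), and promoter 3 held the E-box CACGTG (6.02% of all). Sv2b has 4 annotated promoters, and its 1 probe set does not show which start was in use. AGGTCA, a motif of ROR receptors, was in 1 promoter of Syt1 (14.0% of all). The right part of the REST element GGACAGC (5.28% of all), the D-box TTATGTAA (0.819%) and the AP-1 motif TGAGTCA (4.46%) had no exact match in the 13 windows. Near matches were not searched, and in Syn1 the letters soon after the left part resemble the right part without being identical. A match describes the letters and does not show binding.

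All 10 members stood far above the array median in hippocampus, and most stood near or below it in heart and skeletal muscle. Values are log2 intensities after RMA, and levels are compared between arrays for 1 gene at a time, never between genes. Array medians were 3.68 to 3.71 in hippocampus, 2.61 to 2.63 in heart and 2.44 to 2.49 in skeletal muscle, and the correlation of arrays within a group was 0.982 to 0.993. Summed markers matched the labelled tissues: the list of skeletal muscle genes averaged 11.55 to 11.63 in muscle arrays, the list of heart genes 11.02 to 11.32 in heart arrays and the list of neuronal genes 8.49 to 8.62 in hippocampus arrays. Of the 10 members, 0 had a group mean below the array median in hippocampus, 5 in transgenic and 6 in wild type heart, and 6 in each genotype of muscle. Where both groups lie near the low end of the scale, the size of a difference is a poor guide to the change in RNA.

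**Figure D1:**
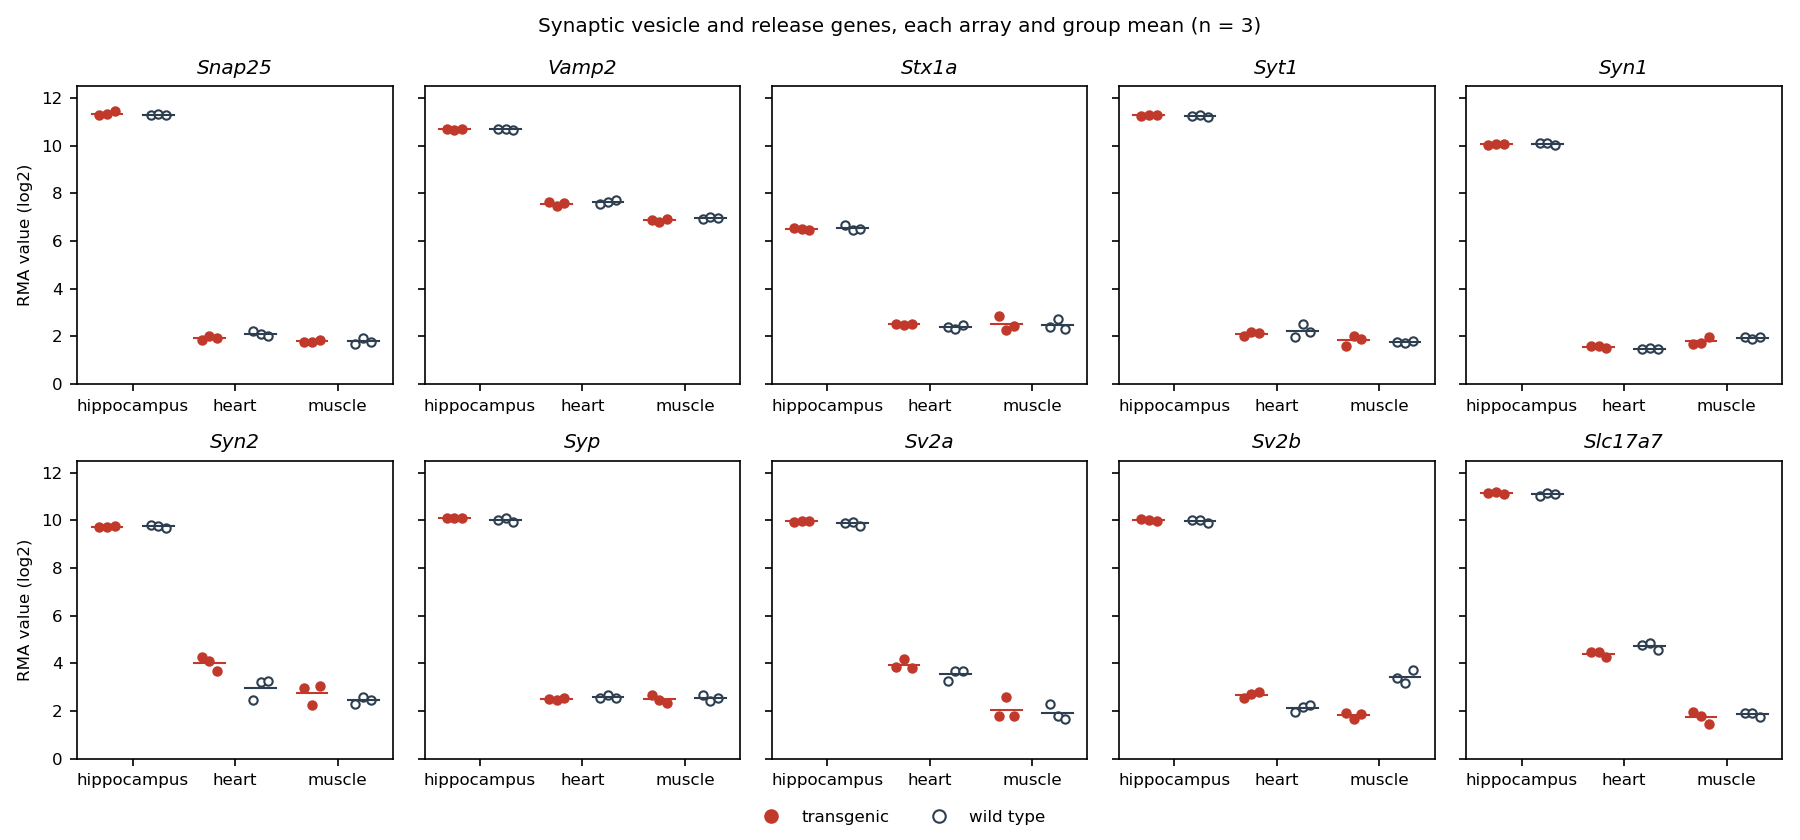
Log2 RMA value (vertical axis) of the 10 members on all 18 arrays, 1 panel per gene, with transgenic arrays left of wild type arrays within hippocampus, heart and skeletal muscle; points are arrays and bars are group means. Hippocampus values lie between 6.46 and 11.43, and among the members Vamp2 alone lies above 6.8 on every heart and muscle array.

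The SNARE genes come first. Snap25, whose product contributes helices from the plasma membrane side, had 11.27, 11.32 and 11.43 in transgenic and 11.30, 11.33 and 11.27 in wild type hippocampus. It had 1.86, 2.01 and 1.92 in transgenic and 2.24, 2.10 and 2.00 in wild type heart, and 1.75 to 1.86 in transgenic and 1.68 to 1.94 in wild type muscle. The genotypes overlapped in all 3 tissues, and the heart and muscle values were all below the array medians.

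Vamp2, the vesicle SNARE, was well above the array median in every tissue. It had 10.69, 10.63 and 10.71 in transgenic and 10.68, 10.72 and 10.65 in wild type hippocampus. In heart it had 7.65, 7.47 and 7.60 in transgenic and 7.56, 7.62 and 7.71 in wild type arrays, and in muscle 6.89, 6.81 and 6.91 in transgenic and 6.90, 6.99 and 6.95 in wild type arrays. Again the genotypes overlapped in each tissue. Stx1a, which encodes the syntaxin of the same complex, averaged 6.50 ± 0.04 in transgenic and 6.56 ± 0.11 in wild type hippocampus, 2.50 ± 0.01 in transgenic and 2.40 ± 0.09 in wild type heart, and 2.52 ± 0.30 in transgenic and 2.49 ± 0.21 in wild type muscle (SD, n = 3 each).

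Syt1, the calcium sensor, had 11.23, 11.28 and 11.30 in transgenic and 11.25, 11.29 and 11.18 in wild type hippocampus. In heart it ran from 2.02 to 2.19 in transgenic and from 1.97 to 2.51 in wild type arrays, and in muscle from 1.60 to 2.00 in transgenic and from 1.74 to 1.83 in wild type arrays. Its heart and muscle values were thus all below the array medians. Syn1, the X-linked synapsin gene, had 10.04, 10.09 and 10.05 in transgenic and 10.09, 10.11 and 10.04 in wild type hippocampus, and it stood below 2 on every heart and muscle array. Syn2, its paralog, had 9.73, 9.71 and 9.74 in transgenic and 9.82, 9.78 and 9.68 in wild type hippocampus. For both synapsins the genotypes overlapped in hippocampus.

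Syp, the synaptophysin gene, had 10.11, 10.11 and 10.09 in transgenic and 9.99, 10.09 and 9.94 in wild type hippocampus, and its 4 heart and muscle groups averaged 2.50 to 2.59. Slc17a7 had 11.15, 11.17 and 11.10 in transgenic and 11.03, 11.13 and 11.09 in wild type hippocampus. Sv2a had 9.95, 9.99 and 9.99 in transgenic and 9.89, 9.94 and 9.78 in wild type hippocampus, and Sv2b ran from 9.99 to 10.06 in transgenic and from 9.91 to 10.01 in wild type hippocampus. In Sv2a and Syp every transgenic hippocampus array lay above every wild type one, for Syp by less than the printed digits show, while Slc17a7 and Sv2b overlapped.

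In wild type mice every member was higher in hippocampus than in either of the other tissues. The difference from skeletal muscle ran from 3.74 ± 0.07 (SE) for Vamp2 and 4.07 ± 0.13 for Stx1a to 9.21 ± 0.12 for Slc17a7, 9.47 ± 0.12 for Syt1 and 9.51 ± 0.09 for Snap25, with a median of 7.71. Syn2 at 7.31, Syp at 7.46, Sv2a at 7.96, Syn1 at 8.13 and Sv2b at 6.54 lay between them. The difference from heart ran from 3.05 ± 0.07 for Vamp2 to 9.18 ± 0.09 for Snap25, with a median of 7.10. In both muscle and heart, the wild type means of Snap25, Syt1 and Syn1 lay below the array median, as did those of Slc17a7, Sv2a and Syn2 in muscle and of Sv2b, Syp and Stx1a in heart, so the sizes of these differences, and their order, are set partly by the low end of the scale. limma, fitted to all 18 arrays with Benjamini-Hochberg adjustment over all probe sets, called 10 of 10 members in both comparisons, with adjusted p no higher than 1.19e-13 against muscle and 2.26e-13 against heart. It also called 70.1% of all probe sets higher in hippocampus than in muscle and 67.3% higher than in heart, with a median over all genes of 0.73 and 0.65. In bulk tissue, fewer cells of a type and less RNA per cell cannot be told apart.

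These tissue differences carry a shift between whole arrays. Of the probe sets called, 89.6% were higher in hippocampus than in muscle and 87.7% higher than in heart, against 26.4% and 26.0% with each array centred on its median and 43.3% and 44.2% after quantile normalization. Under both scalings all 10 members were still called higher, and after quantile normalization their differences ran from 2.79 to 9.32 against muscle and from 2.77 to 8.95 against heart. The pair of comparisons shares the wild type hippocampus arrays.

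**Figure D2:**
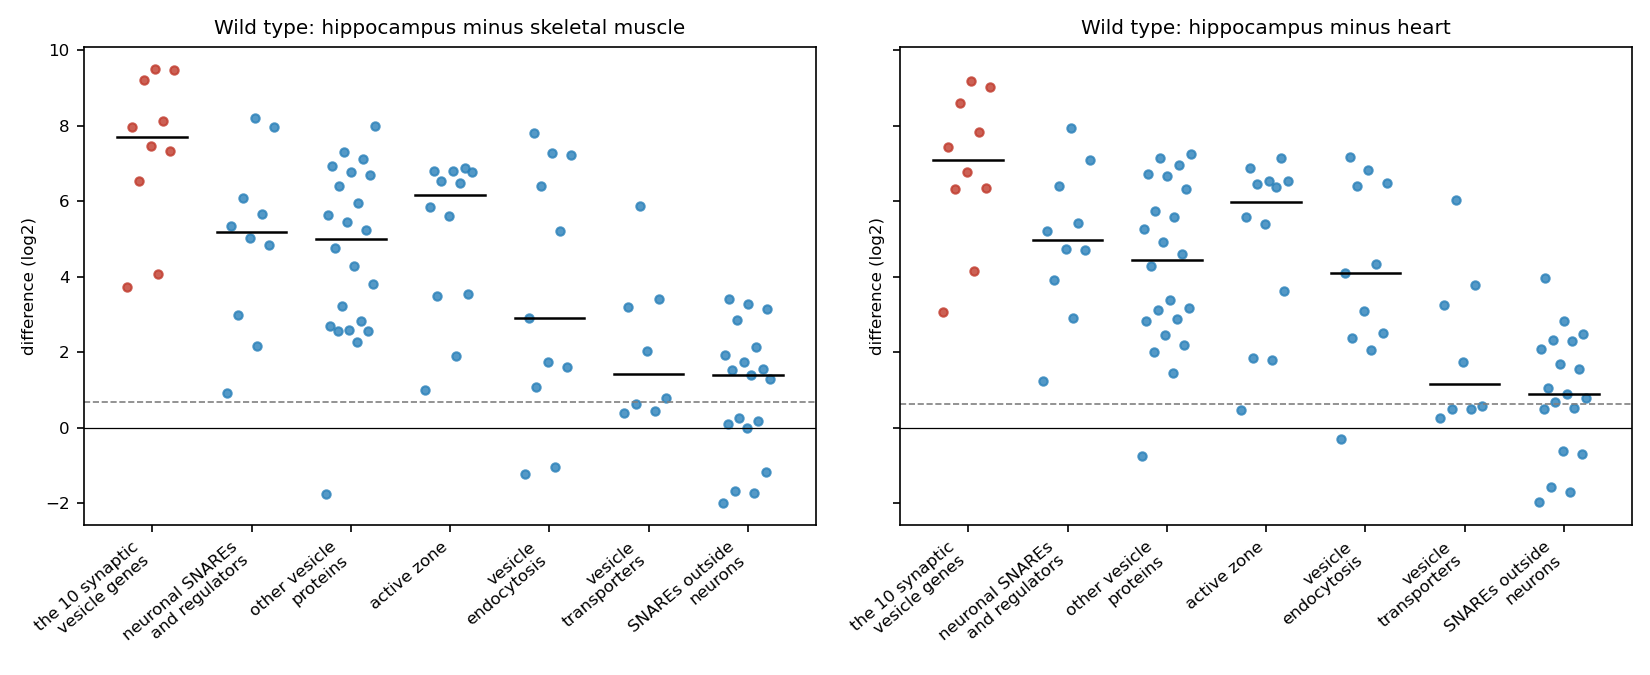
Difference in log2 value, wild type hippocampus minus wild type skeletal muscle (left) and minus wild type heart (right), with 1 point per gene for the 10 members (red) and 6 other lists (blue); bars are list medians and the dashed line is the median over all probe sets, 0.67 and 0.61. The members lie between 3.74 and 9.51 against muscle and between 3.05 and 9.18 against heart.

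Heart and skeletal muscle also differed from each other, and not in 1 direction. Slc17a7, the vesicular glutamate transporter gene, had 4.78, 4.86 and 4.56 in wild type heart and 1.92, 1.94 and 1.75 in wild type muscle, a difference of 2.86 ± 0.12. Sv2a was higher in heart by 1.63 ± 0.21, Vamp2 by 0.69 ± 0.07, Syt1 by 0.45 ± 0.12 and Snap25 by 0.32 ± 0.09. Sv2b was lower in heart, at −1.30 ± 0.12, with 1.98, 2.17 and 2.25 in wild type heart and 3.37, 3.20 and 3.73 in wild type muscle, and Syn1 was lower at −0.47 ± 0.07. The wild type means of Snap25, Syt1 and Syn1 lay below the array median in both tissues, so these differences are between low values and their sizes are uncertain. In muscle the wild type means of Slc17a7 and Sv2a also lay below it, and in heart that of Sv2b. The sizes of their differences are thus uncertain too. Syn2 (0.54, adjusted p = 0.0659), Syp (0.04) and Stx1a (−0.08) did not pass, and the small value of Syp turned negative under both other scalings. Syn2 was called without dim probe sets (adjusted p = 0.0421) and without wild type heart array 1 (0.80, adjusted p = 0.00614).

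In all, 5 members were called higher and 2 lower in wild type heart than in wild type muscle, beside 25.6% and 13.1% of all probe sets. Snap25 and Syt1 were no longer called with arrays centred on their medians (adjusted p = 0.195 and 0.0824) or with heart and muscle arrays of wild type mice alone in the fit (adjusted p = 0.0698 and 0.0559). Of the probe sets called in this comparison, 66.1% were higher in heart as deposited, 44.0% after centring and 50.7% after quantile normalization.

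In hippocampus, where these genes are high, no member was called different between genotypes. The largest differences, transgenic minus wild type, were 0.11 for Sv2a (95% interval −0.34 to 0.55) and 0.10 for Syp (−0.10 to 0.29), followed by Slc17a7 at 0.06, Snap25 at 0.04, Sv2b at 0.04 and Syt1 at 0.03. Vamp2 differed by −0.00 (−0.15 to 0.14), Syn1 by −0.02 (−0.18 to 0.13), Syn2 by −0.03 and Stx1a by −0.05. Directions this close to 0 were not stable, and Vamp2 turned positive after centring and Syt1 negative after quantile normalization. limma called 0 of 10 members and 0 of 35382 probe sets, a share of 0%. At an unadjusted limma p under 0.05 there were 0 members and 1784 probe sets, 5.04% of all.

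The spread was small in hippocampus, with an SD of 0.01 to 0.08 in transgenic and 0.03 to 0.11 in wild type arrays over the 10 members. With the 6 hippocampus arrays alone in the fit, all 95% intervals of the members lay between −0.25 and 0.28, and adjusted p ran from 0.802 (Sv2a) to 0.992 (Vamp2). Every transgenic array was above every wild type array in 2 members, Sv2a and Syp, and every one below in 0, beside 5.95% and 7.37% of all probe sets. Wild type hippocampus array 3 lay below the tissue mean in all 10 members, at −0.06 on average, while the other 5 arrays averaged 0.00 to 0.02 above it. These intervals bound the differences and do not show that the genotypes were the same.

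**Figure D3:**
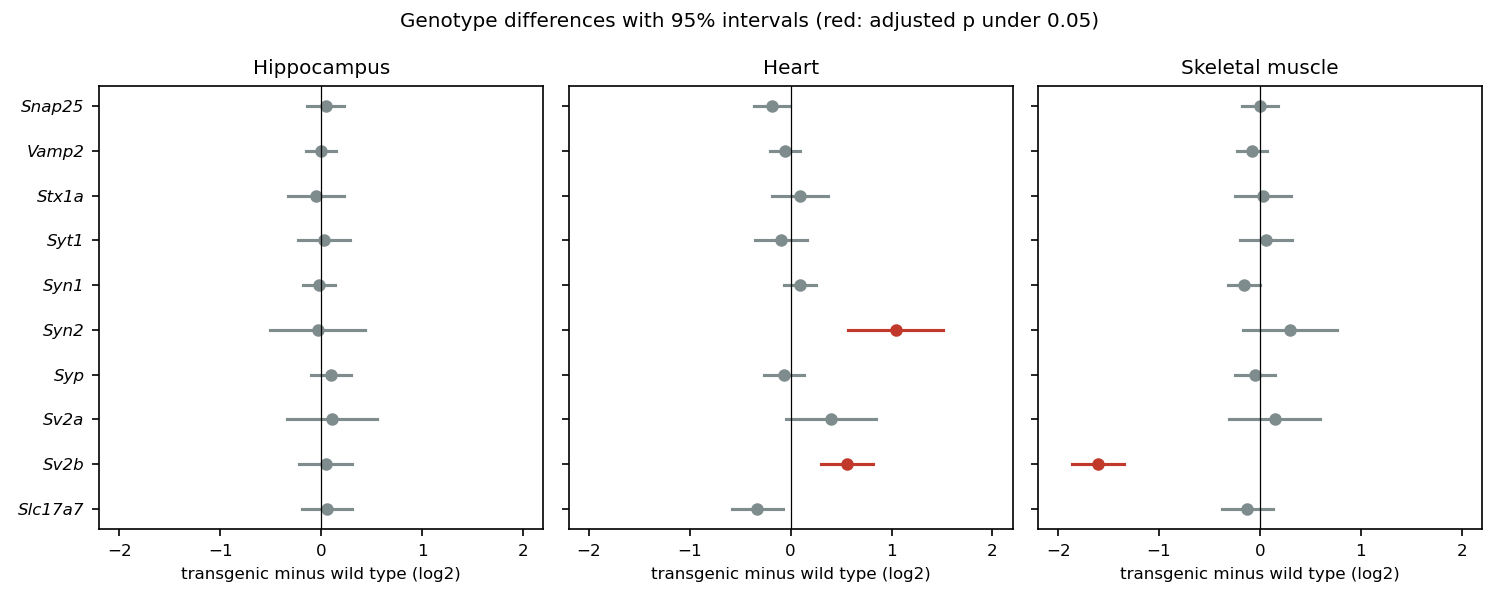
Transgenic minus wild type difference in log2 value for the 10 members in hippocampus, heart and skeletal muscle, with 95% intervals from limma, n = 3 arrays per group. Hippocampus values lie between −0.05 and 0.11, Sv2b is at −1.60 in muscle, and Syn2 and Sv2b are at 1.04 and 0.56 in heart.

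Sv2b, one of the vesicle glycoprotein genes, was lower in transgenic skeletal muscle. It had 1.91, 1.68 and 1.90 in transgenic and 3.37, 3.20 and 3.73 in wild type muscle, so all transgenic arrays lay below all wild type arrays. The difference was −1.60 ± 0.12 (SE, 95% interval −1.86 to −1.34), a 3.03-fold lower value (limma, adjusted p = 1.06e-06). It was called with the muscle arrays alone in the fit (adjusted p = 0.00897) and with each muscle array left out in turn, at −1.72 to −1.45. The transgenic mean of 1.83 lay below the muscle array median of 2.45 and the wild type mean of 3.43 above it, so how far Sv2b fell is not well measured.

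The other 9 members did not pass in muscle. Their differences ran from −0.16 ± 0.07 for Syn1 (adjusted p = 0.249) to 0.30 ± 0.22 for Syn2 (adjusted p = 0.543), and Syn2 had 2.95, 2.25 and 3.03 in transgenic and 2.30, 2.59 and 2.45 in wild type muscle, which overlap. Thus 1 of 10 members was called lower and 0 higher in muscle, beside 4.3% and 3.86% of all probe sets. Groups stood apart in 1 member, Sv2b, and in 21.9% of all probe sets. Without transgenic muscle array 3, Syn1 was also called (−0.25, adjusted p = 0.0435).

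In heart, Sv2b and the synapsin gene Syn2 were called higher in transgenic mice. Syn2 had 4.28, 4.11 and 3.70 in transgenic and 2.47, 3.22 and 3.27 in wild type heart, a difference of 1.04 ± 0.22 (2.06-fold, limma, adjusted p = 0.0178). Sv2b had 2.56, 2.72 and 2.81 in transgenic and 1.98, 2.17 and 2.25 in wild type heart, a difference of 0.56 ± 0.12 (1.48-fold, adjusted p = 0.0203). In both genes every transgenic array lay above every wild type array, and the 2.70 average of Sv2b in transgenic heart lay just above the array median of 2.61. Hence 2 of 10 members were called higher and 0 lower in heart, beside 1.57% and 1.62% of all probe sets.

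Neither heart call held with the 6 heart arrays alone in the fit (adjusted p = 0.190 for Syn2 and 0.141 for Sv2b). Syn2 was lost without wild type array 1 (adjusted p = 0.0695), transgenic array 1 (0.0637) or transgenic array 2 (0.0630), and Sv2b without wild type array 1 (0.0894), transgenic array 2 (0.0648) or transgenic array 3 (0.0870).

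The other members did not pass in heart. Slc17a7 had 4.49, 4.47 and 4.26 in transgenic and 4.78, 4.86 and 4.56 in wild type heart, all transgenic arrays being lower (−0.33 ± 0.12, adjusted p = 0.172). Sv2a had 3.86, 4.20 and 3.79 in transgenic and 3.26, 3.69 and 3.70 in wild type heart, all transgenic arrays being higher (0.40 ± 0.21, adjusted p = 0.396). Snap25 differed by −0.18 (adjusted p = 0.326), and Syn1 by 0.10 (adjusted p = 0.626). All transgenic heart arrays were higher in 3 members and lower in 1, beside 9.19% and 9.35% of all probe sets.

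The genotype difference of Sv2b was not the same in the tissues. In heart it exceeded that in skeletal muscle by 2.16 ± 0.17 (95% interval 1.80 to 2.53, limma interaction term, adjusted p = 1.01e-05), a contrast in which 2.55% of all probe sets were called. In hippocampus it exceeded that in skeletal muscle by 1.65 ± 0.17 (adjusted p = 8.6e-05), where 3.4% were called. Both contrasts were added after the values had been seen. Transgenic muscle (1.83) and wild type heart (2.13) lay below their array medians for Sv2b, and quantile normalization gave 2.73 and 2.09, so the sizes are less certain than the intervals show. Both were called with only the arrays of the compared tissues in the fit (adjusted p = 0.0011 and 0.00101) and with each array left out in turn. Hippocampus minus heart did not pass for Sv2b (−0.52, adjusted p = 0.273) or Syn2 (−1.08, adjusted p = 0.184), where 0.582% of all probe sets were called, nor did heart minus muscle for Syn2 (0.75, adjusted p = 0.279). These contrasts share arrays.

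**Figure D4:**
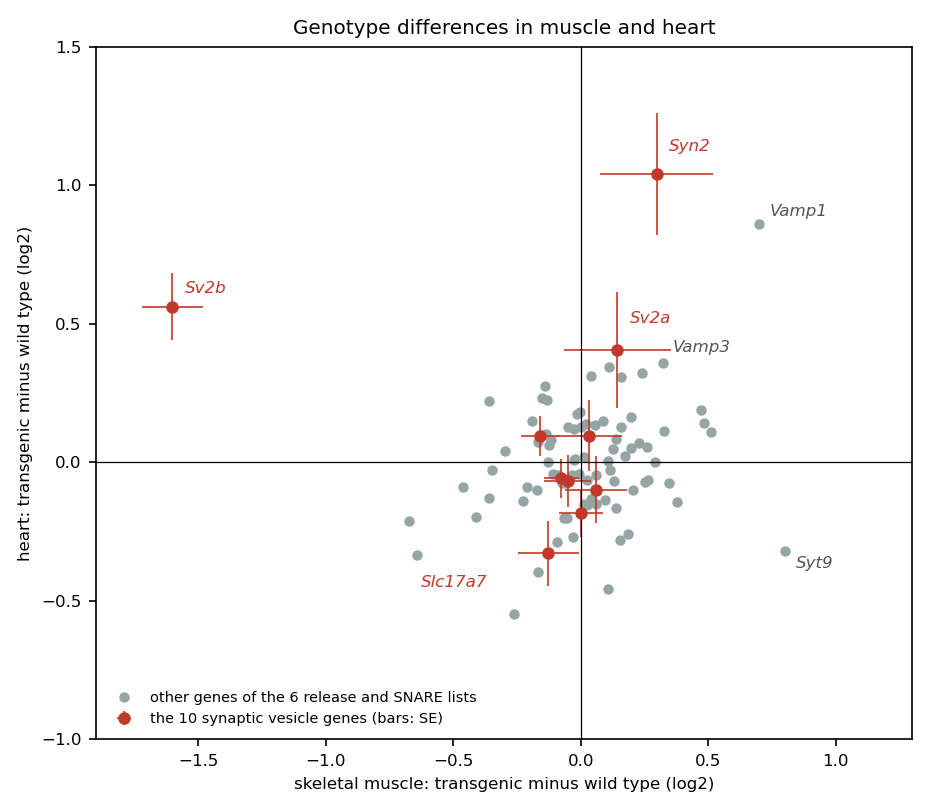
Transgenic minus wild type difference in log2 value in skeletal muscle (horizontal) against that in heart (vertical), for the 10 members (red, bars are SE, n = 3 arrays per group) and the genes of 6 release and SNARE lists (grey). Sv2b lies at −1.60 in muscle and 0.56 in heart, Syn2 at 0.30 and 1.04, and Vamp1 at 0.70 and 0.86.

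Hippocampus against the mean of heart and muscle gave 0.56 for Sv2b (adjusted p = 0.0821) and −0.70 for Syn2 (adjusted p = 0.280), so 0 of 10 members were called beside 1.33% of all probe sets. Averaged over the 3 tissues, the genotype difference was −0.33 ± 0.07 for Sv2b (adjusted p = 0.00975) and 0.44 ± 0.13 for Syn2 (adjusted p = 0.0608), and 1 of 10 members was called beside 5.8% of all probe sets. The Sv2b average joins a negative value in muscle with a positive value in heart.

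Further genes of release and the vesicle cycle were read from 5 lists, covering neuronal SNAREs and their regulators, other vesicle proteins, the active zone, vesicular transporters and endocytosis, with 63 genes measured. By genotype, 0 of 63 were called in hippocampus, 5 were higher and 3 lower in muscle, and 1 was higher and 0 lower in heart. Over all 18781 genes, 5.44% were called higher and 6.10% lower in muscle, and 2.04% and 2.44% in heart, so the counts of the 63 lay near the background. The median difference of the 63 was 0.01 in muscle and −0.04 in heart, against 0.01 and −0.00 over all genes. Vamp1, the paralog of Vamp2 that serves motor nerve terminals, was called in both tissues. It ran from 7.25 to 7.45 in transgenic and from 6.47 to 6.91 in wild type muscle (difference 0.70, adjusted p = 0.000615), and from 5.67 to 5.85 in transgenic and from 4.80 to 5.04 in wild type heart (0.86, adjusted p = 0.00043). The genotypes did not overlap for Vamp1 in either tissue, but with 1 tissue in the fit the adjusted p was 0.0597 in muscle and 0.0596 in heart.

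In transgenic muscle Syt9, a calcium-sensing synaptotagmin gene, was higher by 0.80, Dnajc5, which encodes the vesicle chaperone CSPα, by 0.38, Atp6v0d1, a subunit gene of the vacuolar proton pump, by 0.35, and Rab3b, a vesicle GTPase gene, by 0.33. Dnm3, a dynamin gene, was lower at −0.64, Ap2a1, a clathrin adaptor gene, at −0.46, and Sypl, a relative of Syp, at −0.36. Among 19 measured SNAREs and partners of cells other than neurons, Snap47 (0.48), Stx3 (0.47) and Vamp3 (0.32) were higher and Stx8 (−0.67) and Stxbp3 (−0.35) lower in transgenic muscle, and Vamp3 was higher in transgenic heart (0.36, adjusted p = 0.193 with the heart arrays alone). With the muscle arrays alone in the fit, Dnm3 (adjusted p = 0.0435) and Stx8 (adjusted p = 0.0179) were still called and the others named here for muscle were not.

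In wild type mice 60 of the 63 genes were higher in hippocampus than in muscle and 3 lower, with a median of 4.84, and 60 were higher and 1 lower than in heart, with a median of 4.35. Over all 18781 genes, 75.2% were called higher and 10.9% lower against muscle (median 0.73), and 72.3% higher and 13.2% lower against heart (median 0.65). The active zone list had a median of 6.16 against muscle and the list of neuronal SNAREs and their regulators 5.18. SNAREs that serve other cells were mixed: 12 of 19 were higher and 4 lower in hippocampus than in muscle, with a median of 1.39. That is a smaller share called higher than over all genes, though the median lay above theirs. Against heart 14 of 19 were higher and 5 lower, with a median of 0.90, a share called higher close to that over all genes. The 4 lower against muscle were Vamp5 (−2.00), Vamp8 (−1.75), Snap23, the widely expressed relative of Snap25 (−1.68), and Vamp3, the widely expressed relative of Vamp2 (−1.17), and their direction was the same after quantile normalization.

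Markers of other cells were read beside the muscle and heart calls. Of 9 measured neuron markers, 0 were called by genotype in any tissue. Their mean ran from 2.22 to 2.33 in transgenic and from 2.36 to 2.39 in wild type heart, and from 2.10 to 2.19 in transgenic and from 2.17 to 2.19 in wild type muscle, with 7 of 9 below the array median in each of these groups. Of 7 markers of excitatory hippocampal neurons, Camk2a (−0.48) and Wfs1 (−0.59) were lower in transgenic muscle and Prox1 (−0.40) in transgenic heart. In both genotypes only 3 of these 7 lay below the array median in heart and 4 in muscle. In wild type mice 1 of them differed by 4.29 between heart and muscle, so there the list does not read hippocampal neurons alone. Of 6 genes listed as astrocyte markers, Aldh1l1 was lower in transgenic muscle (−0.50) and Gja1 in transgenic heart (−0.74). In wild type mice 1 of these 6 was called lower in hippocampus than in heart (−1.03), so in heart the list does not read astrocytes alone. Of 7 inhibitory neuron, 4 oligodendrocyte and 6 microglia markers 0 were called by genotype in either tissue. Of the 7 inhibitory neuron markers, 7 lay below the array median in heart and 6 in muscle, in both genotypes. In wild type mice 1 of these 7 was called lower in hippocampus than in muscle (−5.11), so the list says little about these neurons outside hippocampus. The mean of the oligodendrocyte list ran from 2.43 to 2.54 in transgenic and from 2.64 to 2.84 in wild type heart, and from 2.63 to 2.72 in transgenic and from 2.80 to 2.95 in wild type muscle. Of 6 markers of motor and autonomic axons 0 were called. In both genotypes 6 of 6 lay below the array median in heart and 5 of 6 in muscle, so a change in them could hardly be seen. Of 6 markers of peripheral nerve and Schwann cells, Ncam1 (0.69, adjusted p = 0.00661) and Pmp22 (0.39, adjusted p = 0.0172) were higher in transgenic heart, where the mean of the list ran from 4.40 to 4.53 in transgenic and from 4.35 to 4.47 in wild type arrays. The list did not move in 1 direction there: its median difference was 0.07, and its lowest, −0.78, was not called. Of 6 heart muscle markers, Nppa, the atrial natriuretic peptide gene, was higher (1.36) and Ryr2, the calcium release channel gene, lower (−0.38) in transgenic heart, and the mean ran from 11.20 to 11.32 in transgenic and from 11.02 to 11.13 in wild type heart. In transgenic muscle the heart markers Actc1 (0.47) and Myl2 (0.57) were higher, and 0 of 6 skeletal muscle markers were called there, whereas 1 of these 6, Acta1, was lower in transgenic heart (−1.18). With 1 tissue in the fit none of the marker genes named here for heart or muscle was called, with adjusted p from 0.0520 (Nppa) to 0.174 (Pmp22) in heart and from 0.0565 (Wfs1) to 0.330 (Myl2) in muscle. The part of these markers in the Syn2 and Sv2b differences was not tested.

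Over the 18 arrays the genes most like the mean of the 10 members, by Pearson's r, were Aplp1 (0.9996), Slc24a2 (0.9993), Bcat1 (0.9992), Nrxn2 (0.9992) and Ap3s1 (0.9991). An r above 0.99 was reached by 1721 of 21143 other probe sets with a single symbol (8.14%), and all arrays of a tissue share its level, so the measure mostly follows the step between hippocampus and the other tissues. Each member correlated with the mean of the other 9 at 0.968 (Slc17a7) to 0.998 (Syt1).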

How the data were processed

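RNA of 3 tissues from transgenic and wild type mice was measured on 18 arrays. The values the authors deposited are on a log2 scale and came from RMA (R 2.10.0), by the submitters' processing notes. The chip definition, and whether tissues were normalized jointly, were not stated. Members, gene lists and naming rule were chosen with earlier results of these data known. The rule named all members and up to 4 called genes per direction and list. A single limma fit (limma 3.58.1, R 4.3.3) with 1 mean per group had 12 residual and 2.67 prior degrees of freedom, so the error of a gene in 1 tissue also reflects its spread in the others. Tests were two-sided and adjusted by Benjamini-Hochberg over 35382 probe sets, and values under 0.05 were called. The procedure was tested on simulated data. The number of arrays limits precision. Alternatives were the arrays in the fit, a replicate block, centring, quantile normalization, a filter on dim probe sets, another prior and leaving out each array. Figures used matplotlib 3.10.9.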

Additional observations from a re-analysis of the deposited data

Results flagged for a closer look

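The genotype difference of Sv2b differed between tissues by an interaction term of the limma model. In heart it exceeded that in skeletal muscle by 2.16 on the log2 scale. In hippocampus it exceeded that in skeletal muscle by 1.65. Quantile normalization gave 2.73 and 2.09, and transgenic muscle and wild type heart lay below their array medians for Sv2b, so the sizes are uncertain.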

How the results depend on the processing

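Of the 33 called member values, 0 changed sign in 419 alternative values and 13 of those alternative values were no longer called. Most of the 33 were wild type tissue differences. The 13 losses fell on the heart genotype calls of Sv2b and Syn2 and on Syt1 and Snap25 in wild type heart minus muscle. The 77 uncalled values changed sign in 74 of 1301 alternative values, and none of these was called. Fitting only the arrays compared lowered the probe sets called to 838 (from the 2884 of all arrays) in muscle and 36 (1128) in heart, the members higher in heart to 0 (2) and those higher in wild type heart than muscle to 3 (5), also 3 after centring. The replicate block left 1 member higher in heart, Sv2b (Syn2 limma adjusted p = 0.0991), and 525 probe sets, and otherwise changed no member call. Within a tissue, same-numbered transgenic and wild type arrays correlated at −0.031 to 0.040 in their deviations from group means. That cannot show whether equal numbers in different tissues mark the same animal. Without dim probe sets 1 member was higher in the mean over tissues (Syn2). In hippocampus minus the mean of muscle and heart 1 was higher (Sv2b), as after quantile normalization, 1. That filter left 17691 of 35382 probe sets to test. Of these 17691, 15467 were called between hippocampus and muscle and 15073 between hippocampus and heart, beside 27667 and 27165 of all 35382. After quantile normalization 17223 of all 35382 were called in the comparison with heart. In hippocampus Vamp2 was 0.0039 after centring and Syt1 −0.027 after quantile normalization; in wild type heart minus muscle Syp was −0.14 and −0.18 under these scalings. With 1 array left out, hippocampus differences ran from −0.0021 to 0.081 for Snap25, −0.00063 to 0.056 for Syt1, −0.022 to 0.017 for Vamp2 and −0.091 to 0.0095 for Stx1a, and wild type heart minus muscle from −0.028 to 0.11 for Syp and −0.16 to 0.035 for Stx1a. Members called lower in muscle then numbered 1 to 2, higher in heart 0 to 2, in the mean 0 to 1 and in hippocampus minus the mean of muscle and heart 0 to 1, and probe sets called in heart 593 to 989. Syn2, wild type heart minus muscle, was called without dim probe sets (adjusted p = 0.0421). A mean over several probe sets gave no new value, since each member has 1. Signal limits Sv2b, Syn2 and most members outside hippocampus, which lie near or below the array median.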
